A study of Mus musculus with 6 samples.

Results

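Interferon-stimulated genes were followed in liver RNA-seq from 3 wild-type (WT) and 3 Zpbp2 knockout (Zpbp2 KO) mice. The set holds 44 genes named in a fixed list, out of 37991 gene IDs in the count table and 14686 tested genes. All 44 were found in the table by symbol and all 44 passed the filter on low counts, the lowest count of a member in any library being 75. The WT animals were C57BL/6J and the knockouts B6.Zpbp2-/-, and both groups were 12-week-old adult males with no treatment given in the labels. The labels do not describe the design of the deletion. Zpbp2 encodes a zona pellucida binding protein of sperm, and the study concerns asthma and lipid metabolism in its absence. The samples were whole livers, so fewer cells of a type and less RNA per cell cannot be told apart. By textbook knowledge 36 members were placed in a type I class and 8 in a type II class, although many of these genes respond to both kinds of interferon. Below, values of 3 livers are always in the order of replicates 1, 2 and 3, in CPM, the read count normalised to the TMM-scaled library size.

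Interferons are secreted signals of infection. Type I interferons act through a receptor pair, the kinases JAK1 and TYK2, and a complex with STAT2 and IRF9 that binds the interferon-stimulated response element (ISRE). Type II interferon, or interferon gamma, comes mainly from T and NK cells, acts through the gamma-activated site (GAS) and through IRF1, and strongly induces GTPases that attack the vacuoles of intracellular pathogens. In liver, hepatocytes and Kupffer cells both carry the receptors.

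The elements that define these classes were looked for in the RefSeq promoter windows of build GRCm38.p6, which run from 250 bases before to 50 bases after a gene's start. The ISRE core was searched as GAAANNGAAA on both strands, the other strand reading TTTCNNTTTC, and the GAS core as TTCNNNGAA, which reads the same on both strands. Windows were found for 33 of the 44 members. An ISRE core was present in 12 of 26 type I members (46.2%) and 5 of 7 type II members (71.4%), against 3.99% of 27025 genes with a window. A GAS core was present in 6 of the 26 (23.1%) and 3 of the 7 (42.9%), against 9.55% of all genes with a window, and 6 members held both cores. The stretches below show how these letters are arranged in members whose values are given further on: first 5 of the type II class, then 4 of the type I class. They are printed 5′ to 3′ on the strand of the gene, upstream of the start, with the matched cores in capitals.
Igtp (chr11:58199496-58199546, + strand): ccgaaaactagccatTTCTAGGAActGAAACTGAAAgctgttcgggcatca
Gbp7 (chr3:142530215-142530307, + strand): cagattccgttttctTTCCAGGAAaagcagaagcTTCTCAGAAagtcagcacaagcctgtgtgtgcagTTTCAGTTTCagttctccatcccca
Gbp3 (chr3:142559984-142560029, + strand): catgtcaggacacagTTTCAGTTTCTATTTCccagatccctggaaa
Irgm1 (chr11:48871421-48871465, - strand): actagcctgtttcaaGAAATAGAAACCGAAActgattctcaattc
Irf1 (chr11:53769909-53769947, + strand): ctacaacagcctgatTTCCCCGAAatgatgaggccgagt
Isg15 (chr4:156200860-156200911, - strand): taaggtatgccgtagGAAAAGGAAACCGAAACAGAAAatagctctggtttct
Ifit1 (chr19:34640770-34640828, + strand): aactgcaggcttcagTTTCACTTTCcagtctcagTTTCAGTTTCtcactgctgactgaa
Ifit3 (chr19:34583358-34583431, + strand): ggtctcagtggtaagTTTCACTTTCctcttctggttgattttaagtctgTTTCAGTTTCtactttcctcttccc
Rsad2 (chr12:26456548-26456587, - strand): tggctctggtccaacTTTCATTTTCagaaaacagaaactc

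In Igtp a GAS core and an ISRE core stood 2 bases apart, and Gbp7 held 2 GAS cores upstream of 1 ISRE core. Irf1 held a GAS core alone. Isg15 held 3 overlapping ISRE cores, and Gbp3 and Irgm1 held 2 overlapping ones each. Ifit1 and Ifit3 each held 2 separate cores, and Rsad2 held 1. The ISRE core was thus found in both classes, and in a larger share of type II than of type I members with a window. The 17 members with an ISRE core had a median log2 fold change (Zpbp2 KO over WT) of 0.24, from -0.24 to 0.79, and the 16 without had 0.11, from -0.39 to 0.67. In these sets 4 of 17 and 3 of 16 were higher in Zpbp2 KO livers without overlap, where 5.56% of all tested genes were. The 9 members with a GAS core had a median of 0.24, from 0.04 to 0.79, with 9 above 0 and 4 higher without overlap. The 24 without had 0.11, from -0.39 to 0.67, with 18 above 0 and 3 higher without overlap. Members without a window are in none of these sets. Among them are Zbp1, Rtp4, Usp18 and Iigp1, which were also higher without overlap. These splits were not tested. A match is a description of letters in a window, not a binding site.

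The check of the labels came from Zpbp2 itself, which gave 4, 13 and 7 counts in the WT livers and 0, 0 and 0 in the Zpbp2 KO livers. Library totals ran from 37904891 to 52955687 counts. The 8 hepatocyte markers, such as Alb, summed to 92932 to 101525 CPM in WT and 103609 to 109959 CPM in Zpbp2 KO livers. All 8 had a log2 fold change above 0, with a median of 0.13.

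Most interferon-stimulated genes were transcribed at low levels in these livers. Per kilobase of the longest annotated transcript, the median member stood at 6.12 CPM in WT. Levels were highest for Ifitm3, which blocks the fusion of virus and cell membranes (415 CPM per kilobase), Bst2, the tetherin that holds budding virus at the cell surface (164), Iigp1, a GTPase of the immunity-related family (113), and Ifi27, a small membrane protein (94.3). The secreted glycoprotein gene Lgals3bp followed at 36.3 CPM per kilobase. At the other end stood Mx1, an antiviral dynamin-like GTPase whose gene is defective in C57BL/6 and many other laboratory strains, at 0.615 CPM per kilobase. The spread between WT livers, as the SD over the mean, ran from 2.41% for Gbp7 to 31.2% for Gbp2 with a median of 10.9%, and between Zpbp2 KO livers from 3.19% to 44.3% with a median of 16.4%.

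**Figure D1:**
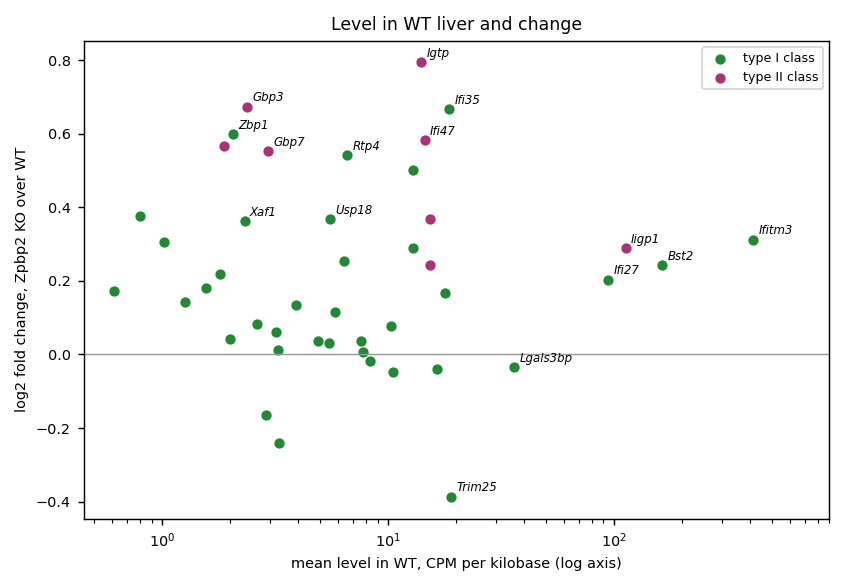
Each point is 1 interferon-stimulated gene, with its mean level in the 3 WT livers in CPM per kilobase on a logarithmic horizontal axis and its log2 fold change, Zpbp2 KO over WT, on the vertical axis. Genes without overlap between the groups and the 5 highest genes are named. Type II class genes (purple) all lie above 0, and Trim25 is the lowest point at -0.39.

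Interferon-stimulated genes stood on average somewhat higher in Zpbp2 KO livers, above all the GTPases of the type II class, but no member passed the test over all genes. With edgeR's quasi-likelihood test and Benjamini-Hochberg adjusted p-values, 0 of 44 members were called higher and 0 lower, where 0% of tested genes were called higher and 0.0136% lower. The smallest adjusted p of a member was 0.475. At an unadjusted p below 0.05, 11 members were higher (25.0%, against 2.86% of all tested genes) and 1 was lower (2.27%, against 2.93%). The same 11 members were higher in each Zpbp2 KO liver than in any WT liver, where 5.56% of tested genes were, and the same 1 member was lower without overlap, as 6.01% of tested genes were. In all, 37 of 44 members (84.1%) had a log2 fold change above 0, against 52.9% of tested genes, and the median was 0.19, against 0.01 over all tested genes. Without WT replicate 2 the count at an unadjusted p below 0.05 dropped from 11 to 6 higher. DESeq2 called 2 members higher, Ifi35 and Zbp1 (4.55%, against 0.184% of tested genes). On counts simulated for this comparison DESeq2 made more false calls than edgeR, 44 against 13 among 14486 unchanged genes. With limma-voom 0 members were called, the smallest adjusted p of a member being 0.549.

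The type II class had a median log2 fold change of 0.56 over 8 genes, and all 8 were above 0. The type I class had a median of 0.14 over 36 genes, with 29 above 0. For comparison, the 8 hepatocyte markers had a median of 0.13, close to that of the type I class, and all were above 0. At an unadjusted p below 0.05, 5 of 8 type II members (62.5%) and 6 of 36 type I members (16.7%) were higher, against 2.86% of all tested genes. In the type I class 1 of 36 was lower, where 2.93% of all tested genes were. Leaving out each library in turn gave 0.41 to 0.63 for the type II median and 0.08 to 0.15 for the type I median, the lowest type I value coming without Zpbp2 KO replicate 2. The difference between the classes is a description, since the classes were not tested against each other.

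**Figure D2:**
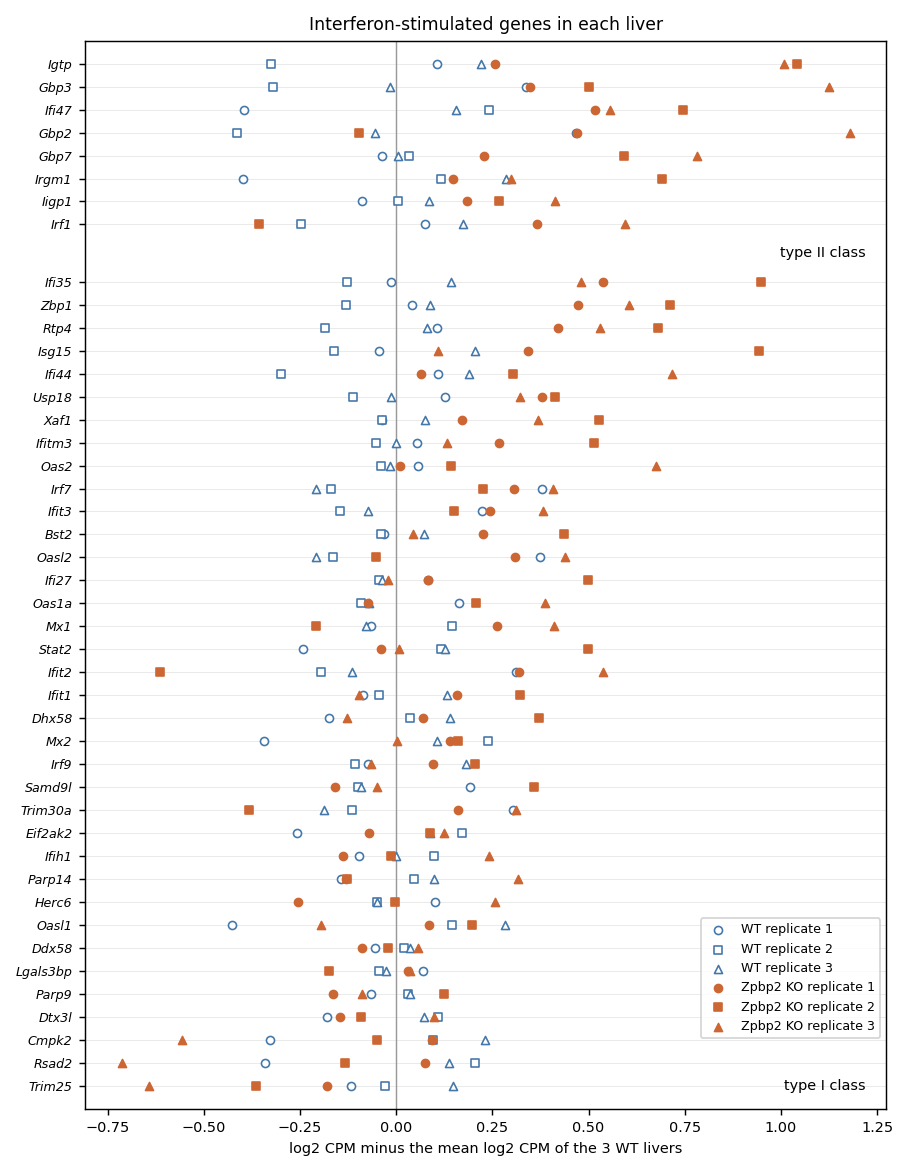
Each row is 1 interferon-stimulated gene and each symbol 1 liver, placed by its log2 CPM minus the mean log2 CPM of the 3 WT livers. Open blue symbols are WT and filled orange ones Zpbp2 KO, with shape giving the replicate. In the upper block, the type II class, Zpbp2 KO symbols lie to the right for most genes. In the lower block both colours mix from Irf7 downward, except for Trim25. Above Irf7 the groups of Isg15, Ifi44 and Oas2 also overlap.

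Among the type II class, the immunity-related GTPases, which dock on the vacuoles of intracellular bacteria and parasites, included the largest fold change. Igtp, also called Irgm3, stood at 30.2, 22.4 and 32.7 CPM in WT and 33.5, 57.7 and 56.4 CPM in Zpbp2 KO livers. Zpbp2 KO liver 1 was barely above the highest WT liver and the other two lay well above. The log2 fold change was 0.79 ± 0.224 (SE), and the adjusted p in edgeR's quasi-likelihood test was 0.705. Ifi47, also called Irg47, read 19.2, 30.0 and 28.2 CPM against 36.2, 42.5 and 37.2 CPM, a change of 0.58 ± 0.169 with no overlap. Iigp1, by far the most abundant of the family, read 331, 353 and 374 CPM against 400, 424 and 469 CPM. Its change was small, 0.29 ± 0.101, yet each Zpbp2 KO liver lay above every WT liver. Irgm1, a regulator of the other family members, stood at 43.9, 62.6 and 70.4 CPM in WT and 64.0, 93.3 and 71.1 CPM in Zpbp2 KO livers (0.37 ± 0.199), and its groups overlapped.

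Guanylate-binding proteins, large GTPases that coat and rupture pathogen vacuoles, lay higher as well. Gbp7 was the steadiest member in WT, with 16.1, 16.9 and 16.6 CPM, and read 19.4, 25.0 and 28.5 CPM in Zpbp2 KO livers. The change was 0.55 ± 0.148, and the groups did not overlap. Gbp3 read 7.93, 5.02 and 6.21 CPM against 7.99, 8.88 and 13.7 CPM (0.67 ± 0.248), so that only a hair separated Zpbp2 KO liver 1 from WT liver 1. Gbp2, at 6.33, 3.44 and 4.40 CPM against 6.34, 4.28 and 10.4 CPM, overlapped (0.57 ± 0.343), and without Zpbp2 KO replicate 3 the change was 0.17. These families, like the Ifit, Oas and Trim30 families, hold close copies in clusters, and how the counting treated reads that could come from several copies is not known, so single values are less certain. Irf1, the transcription factor through which interferon gamma reaches many of these genes, read 34.4, 27.5 and 36.9 CPM against 42.1, 25.5 and 49.4 CPM (0.24 ± 0.229). Its Zpbp2 KO livers were spread over both sides of the WT range.

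The groups overlapped for all regulators of the type I class. Irf7, which drives the interferon alpha genes, stood at 53.7, 36.7 and 35.7 CPM in WT and 51.0, 48.3 and 54.7 CPM in Zpbp2 KO livers (0.29 ± 0.162). Stat2 read 66.1, 84.8 and 85.3 CPM against 76.1, 110 and 78.5 CPM (0.17 ± 0.168), with Zpbp2 KO liver 2 alone above WT. Irf9, which gives the STAT complex its DNA contact, had a change of 0.08 ± 0.119. None of the 4 regulators, Irf1 included, reached an unadjusted p below 0.05.

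Of the 4 nucleic acid sensors, Zbp1 stood apart from the rest. Zbp1, which recognises Z-form nucleic acids and can trigger necroptosis, read 7.05, 6.26 and 7.29 CPM in WT and 9.51, 11.2 and 10.4 CPM in Zpbp2 KO livers. The groups did not overlap, and the log2 fold change of 0.60 ± 0.137 gave adjusted p-values of 0.530 in edgeR and 0.0470 in DESeq2. The cytosolic RNA helicases were level between the groups. Ddx58, the sensor RIG-I, read 31.2, 32.8 and 33.2 CPM against 30.4, 31.9 and 33.7 CPM (-0.02 ± 0.0932). Ifih1, the sensor MDA5, had a change of 0.04 ± 0.121 and Dhx58, their regulator LGP2, one of 0.11 ± 0.158.

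Effectors that act on RNA had a median log2 fold change of 0.16, near the 0.14 of the type I class. All 8 were above 0, from 0.01 to 0.31, and 0 reached an unadjusted p below 0.05. Ifit3, a partner of the Ifit proteins that bind foreign RNA ends, read 12.9, 9.99 and 10.5 CPM against 13.1, 12.3 and 14.4 CPM (0.25 ± 0.141). Ifit1 read 9.76, 10.05 and 11.4 CPM against 11.6, 13.0 and 9.69 CPM (0.13 ± 0.146), and its groups overlapped. Ifit2 had a change of 0.14 ± 0.295, with the lowest level of all 6 livers in Zpbp2 KO liver 2. The oligoadenylate synthetases, which switch on RNase L, included Oas2 (0.31 ± 0.208) and Oas1a (0.18 ± 0.195). Their relatives Oasl2 and Oasl1 stood at 0.22 ± 0.214 and 0.01 ± 0.195. Oasl1 had the highest level per kilobase of these 8, with 12.4, 18.4 and 20.2 CPM in WT and 17.6, 19.1 and 14.5 CPM in Zpbp2 KO livers. Eif2ak2, the kinase PKR that halts translation, had a change of 0.04 ± 0.137.

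The remaining antiviral effectors split by direction. Ifitm3 read 292, 271 and 281 CPM in WT and 338, 402 and 308 CPM in Zpbp2 KO livers, a change of 0.31 ± 0.115 with no overlap. Bst2 stood at 127, 126 and 136 CPM against 152, 176 and 134 CPM (0.24 ± 0.116), so Zpbp2 KO liver 3 fell within the WT range. Both were highest in Zpbp2 KO liver 2. Rsad2, the antiviral enzyme viperin, lay on the other side of 0, with 10.7, 15.6 and 14.9 CPM in WT and 14.3, 12.4 and 8.28 CPM in Zpbp2 KO livers (-0.24 ± 0.225). Its neighbour Cmpk2, a mitochondrial nucleotide kinase gene, gave -0.16 ± 0.212, and both were lowest in Zpbp2 KO liver 3. Ifi44 (0.38 ± 0.230), Mx1 (0.17 ± 0.223), Mx2 (0.08 ± 0.181) and Samd9l, which restricts poxviruses (0.06 ± 0.163), overlapped between the groups.

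Genes for ubiquitin-like and ADP-ribose conjugation held the one member below WT without overlap. Trim25, a ubiquitin ligase that acts on RIG-I, read 97.4, 104 and 117 CPM in WT and 93.4, 82.0 and 67.8 CPM in Zpbp2 KO livers, a change of -0.39 ± 0.135. In edgeR its adjusted p was 0.798. Usp18, which strips ISG15 from proteins and dampens the type I receptor, read 10.7, 9.04 and 9.70 CPM against 12.7, 13.0 and 12.2 CPM (0.37 ± 0.121), tight within each group and without overlap. Isg15, the ubiquitin-like protein itself, read 9.38, 8.65 and 11.1 CPM against 12.3, 18.6 and 10.4 CPM (0.50 ± 0.220). Zpbp2 KO liver 2 was the highest and liver 3 lay within WT. Herc6, the ligase that attaches ISG15 in mice, was level at 0.01 ± 0.148, as were Trim30a (0.04 ± 0.218) and the ADP-ribosyltransferase gene Parp14 (0.03 ± 0.144). Parp9 and its partner Dtx3l, which share a promoter region, gave -0.04 ± 0.105 and -0.05 ± 0.116.

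Among the other type I members, 3 of 5 were higher in Zpbp2 KO livers without overlap, where 5.56% of all tested genes were. Ifi35, which encodes a leucine zipper protein that binds NMI, had the smallest p of all 44. It read 25.1, 23.2 and 27.9 CPM in WT and 36.7, 48.8 and 35.3 CPM in Zpbp2 KO livers, a log2 fold change of 0.67 ± 0.146. Adjusted p-values were 0.475 in edgeR and 0.0290 in DESeq2. Rtp4, a chaperone-like receptor transporter gene, read 13.1, 10.7 and 12.9 CPM against 16.3, 19.5 and 17.6 CPM (0.54 ± 0.132), and Xaf1, an apoptosis-associated gene, 5.87, 5.87 and 6.34 CPM against 6.77, 8.68 and 7.78 CPM (0.36 ± 0.150). Ifi27 read 97.5, 89.3 and 89.7 CPM against 97.5, 130 and 90.7 CPM (0.20 ± 0.142), with Zpbp2 KO liver 2 alone standing out. Lgals3bp lay at -0.03 ± 0.0983. In all, 7 members had values below 0: Trim25, Rsad2, Cmpk2, Dtx3l, Parp9, Lgals3bp and Ddx58.

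**Figure D3:**
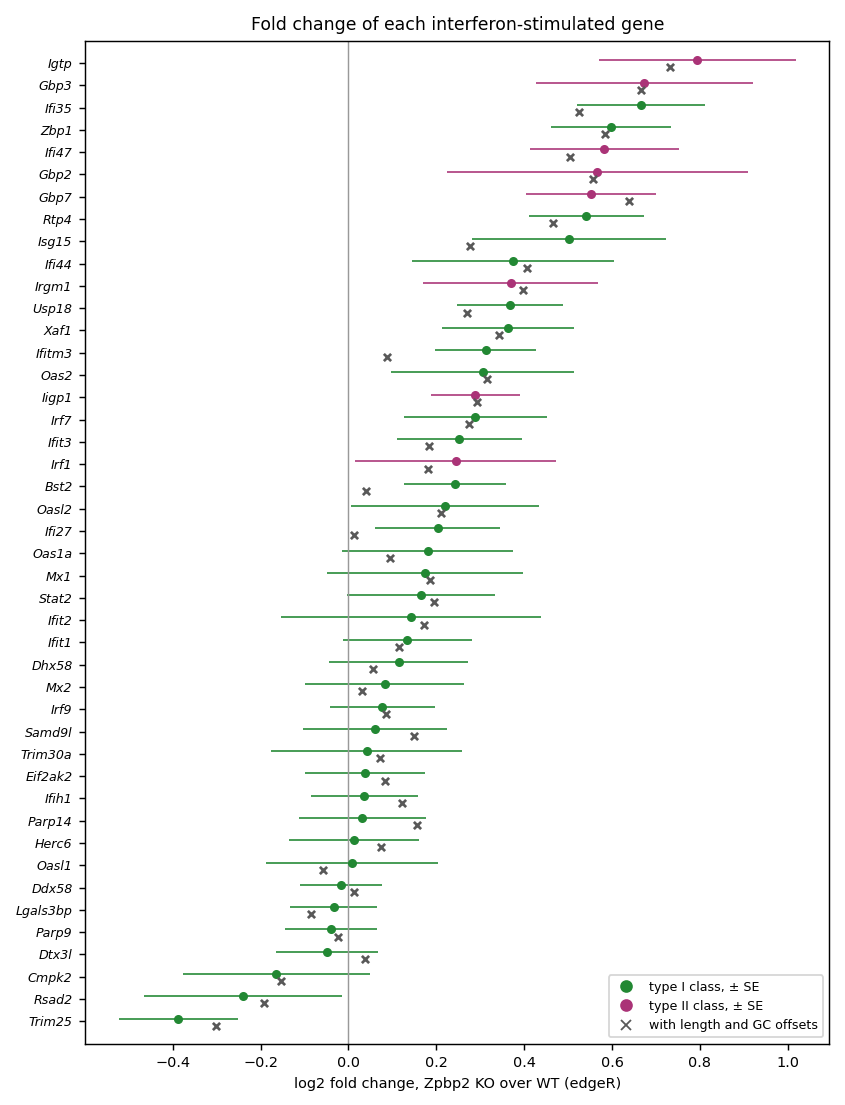
Points give the log2 fold change, Zpbp2 KO over WT, of each interferon-stimulated gene with its SE from edgeR's test (3 livers against 3), green for the type I class and purple for the type II class. Crosses give the same change after offsets that take out trends with transcript length and GC. Igtp is highest at 0.79 and Trim25 lowest at -0.39, and the crosses of Ifitm3, Bst2 and Ifi27 lie near 0.

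The values of several short members depended on an adjustment for the length and GC content of transcripts. With offsets that take out these trends, Ifitm3 went from 0.31 to 0.09, Bst2 from 0.24 to 0.04, Ifi27 from 0.20 to 0.01 and Isg15 from 0.50 to 0.28. These 4 were all highest in Zpbp2 KO liver 2. The members with the smallest p-values kept most of their change, with Igtp at 0.73, Gbp7 at 0.64, Zbp1 at 0.58, Ifi35 at 0.53 and Rtp4 at 0.47. Trim25 went to -0.30, with an unadjusted p of 0.0846. The type II median was then 0.53 and the type I median 0.10.

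Livers differed in how the classes lay. The median type II member stood 0.30, 0.55 and 0.69 above the WT mean on the log2 scale in Zpbp2 KO livers 1, 2 and 3, and at 0.02, -0.12 and 0.12 in the WT livers. For the type I class the medians were 0.09, 0.18 and 0.13 in Zpbp2 KO and -0.03, -0.05 and 0.07 in WT livers. All 3 Zpbp2 KO livers thus lay above all 3 WT livers in both medians, with a clear gap in the type II class and a narrow one in the type I class. Of the 44 members, 20, 24 and 27 exceeded all 3 WT livers in Zpbp2 KO livers 1, 2 and 3, or 45.5%, 54.5% and 61.4%, where 31.2%, 34.8% and 24.3% of all tested genes did. The highest of all 6 livers was Zpbp2 KO liver 2 for 18 members and liver 3 for another 18. The guanylate-binding proteins peaked in liver 3, and 3 of the 4 immunity-related GTPases peaked in liver 2.

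Zpbp2 KO liver 2 also stood apart in markers of non-parenchymal cells. The 12 Kupffer cell and macrophage markers, among them Clec4f and Cd5l, summed to 516, 418 and 356 CPM in WT and 598, 201 and 642 CPM in Zpbp2 KO livers, and all 12 were lowest in Zpbp2 KO liver 2. The 7 endothelial markers, such as Stab2 and Kdr, summed to 265, 184 and 199 CPM against 301, 116 and 219 CPM, again with all 7 lowest in that liver. The 44 interferon-stimulated genes summed to 1792, 1823 and 1927 CPM against 2020, 2275 and 2109 CPM, and their sum was highest in that same liver. Such a sum is weighted to the most abundant members. The median member stood 0.15, 0.21 and 0.30 above the WT mean on the log2 scale in Zpbp2 KO livers 1, 2 and 3, highest in liver 3. Without Zpbp2 KO replicate 2 the median log2 fold change of the 44 members was 0.20 and that of the type II class 0.52. Irf1, Ifit2, Trim30a, Mx1 and Lgals3bp, by contrast, had their lowest value of all 6 livers there. By log2 fold change, 11 of the 12 Kupffer markers were above 0 (median 0.12) and 3 of the 7 endothelial markers (median -0.03).

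**Figure D4:**
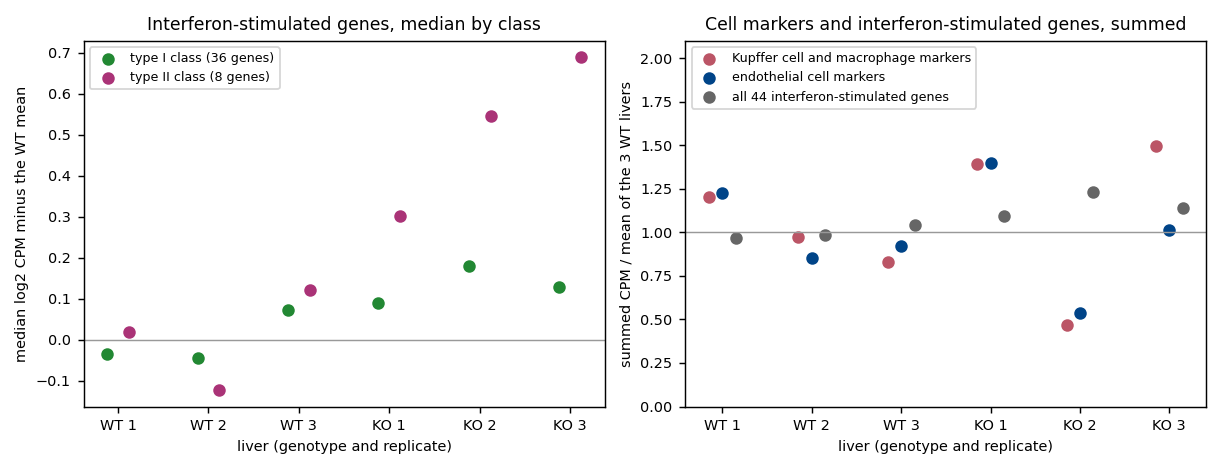
The left panel gives, for each of the 6 livers, the median log2 CPM of the type I (36 genes, green) and type II (8 genes, purple) classes minus the mean of the 3 WT livers. The right panel gives summed CPM of Kupffer cell markers, endothelial markers and all 44 interferon-stimulated genes as a ratio to the mean of the 3 WT livers. In Zpbp2 KO liver 2 the marker sums stand at 0.468 and 0.537 of the WT mean while the sum of interferon-stimulated genes is 1.23 of it. Sums are weighted to the most abundant genes, and the median of the 44 members was highest in Zpbp2 KO liver 3.

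Markers of lymphocytes were sparse and mostly had values above 0. The 16 T and NK cell markers summed to 5.64 to 8.16 CPM in WT and 7.67 to 10.4 CPM in Zpbp2 KO livers, with 14 of 15 tested markers above 0 and a median of 0.34. B and plasma cell markers (9 genes) summed to 11.1 to 21.3 CPM against 18.5 to 21.8 CPM, with 8 of 9 above 0. Dendritic cell markers (8 genes) ran from 10.05 to 11.3 CPM against 10.6 to 12.9 CPM. Neutrophil markers (6 genes, 2 of them with no count in any library) summed to 0.766 to 1.33 CPM against 0.920 to 2.22 CPM, and cholangiocyte and stellate cell markers (9 genes) to 196 to 235 CPM against 172 to 244 CPM. The T cell genes with the smallest p-values, chosen after their values were seen, were Cd2 (1.18 ± 0.445) and Cxcr6 (0.93 ± 0.369), both without overlap. The B cell factor gene Pax5 (0.86 ± 0.342) and the dendritic cell receptor gene Xcr1 (0.87 ± 0.354), chosen in the same way, also lacked overlap. Higher without overlap were 2 of 15 T and NK, 1 of 9 B and 1 of 8 dendritic cell markers, against 5.56% of all tested genes. Counts per library were low, at 6 to 32 for Cd2, 13 to 53 for Cxcr6, and 13 to 44 for Pax5 and Xcr1. Pax5 was highest in Zpbp2 KO liver 2, the liver where the B cell gene Cd79a was lowest. The part of these cells in the members' values was not tested.

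Genes for the interferons themselves were almost silent. Of 21 listed genes 11 were matched in the table, and 9 of these, including Ifnb1 and the matched interferon alpha genes, had no count in any library. Ifng, chosen after its values were seen, gave 2, 1 and 0 counts in the WT livers and 3, 7 and 7 counts in the Zpbp2 KO livers. Pooled over livers these 3 and 17 counts are a ratio of 5.48 per sequenced count, with an exact 95% interval of 1.59 to 29.2 that covers counting error in these libraries and says nothing of animals. The gene was below the expression filter and was not tested.

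Most receptor and signalling genes had values below 0. Of 14 tested genes 3 were above 0 and 11 below, with a median of -0.06. The type I receptor genes Ifnar1 and Ifnar2 lay at -0.03 ± 0.125 and -0.07 ± 0.0856, and the interferon gamma receptor genes Ifngr1 and Ifngr2 at -0.05 ± 0.115 and -0.03 ± 0.157. Without overlap 1 of the 14 was lower, Ifnar2, and 1 was higher, where 6.01% and 5.56% of all tested genes were. Jak2, a kinase of the interferon gamma receptor, gave -0.22 ± 0.150 and Jak1 gave -0.11 ± 0.109, and both overlapped between the groups. The feedback inhibitors Socs1 and Socs3 stood at -0.16 ± 0.300 and -0.27 ± 0.355.

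In the pathway that induces interferon, 12 of 18 genes were above 0, with a median of 0.09. Ticam1, the adaptor of Toll-like receptor 3, read 11.7, 11.3 and 9.88 CPM in WT and 13.4, 20.2 and 17.0 CPM in Zpbp2 KO livers (0.62 ± 0.166). Irf2, a counterpart of Irf1, read 55.9, 52.7 and 47.9 CPM against 59.3, 73.0 and 64.8 CPM (0.33 ± 0.112). Both lacked overlap, and neither was called by edgeR or by DESeq2. Ikbke, a kinase that acts on IRF3, had the next smallest p, with 13.8, 29.4 and 25.7 CPM against 28.0, 32.7 and 30.4 CPM (0.40 ± 0.246) and overlap between the groups. Irf3, which carries the signal to the interferon beta gene, stood at 0.19 ± 0.122 with overlap, and the adaptor gene Mavs was level at 0.05 ± 0.106.

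Interferon-inducible genes outside the 44 lay on the same side. Of 65 tested genes 55 were above 0, with a median of 0.22. At an unadjusted p below 0.05, 13 were higher (20%, against 2.86% of all tested genes) and 0 lower (against 2.93%), and 0 were called. Without overlap 10 were higher (15.4%, against 5.56% of all tested genes). Tdrd7 was the 1 gene lower without overlap, where 6.01% of all tested genes were. The guanylate-binding protein gene Gbp4 read 6.60, 4.89 and 6.26 CPM in WT and 7.55, 9.89 and 12.6 CPM in Zpbp2 KO livers (0.76 ± 0.214). Gbp8 read 2.65, 2.71 and 3.12 CPM against 4.10, 4.14 and 6.90 CPM (0.84 ± 0.243), and the immunity-related GTPase gene Irgm2 62.2, 59.6 and 63.7 CPM against 75.6, 75.8 and 99.9 CPM (0.44 ± 0.127). The 3 genes with the smallest p-values on that list all encode GTPases of the families that make up most of the type II class. Each was higher in every Zpbp2 KO liver than in any WT liver. The list was made with earlier results known and ranked in the same fit, and reads of close copies may be shared with members. These 3 genes are thus not independent of the members. Of the T cell attractants, chosen after their values were seen, Cxcl9 stood at 0.92 ± 0.297 without overlap and Cxcl10 at 0.15 ± 0.232 with overlap.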

How the data were processed

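Poly(A)-selected liver RNA of 3 WT and 3 Zpbp2 KO mice was sequenced in 1 library per animal. The authors deposited raw counts per Ensembl gene, whole numbers with a different total in each library. STAR, Picard, HTSeq and the genome build mm9 are named per the submitters' processing notes. Library preparation kept the strand, per the labels' protocols, but whether counting used it, and which annotation and versions were used, is not given in the sources used for this work, so reads of overlapping genes and near-identical copies may be shared. Columns were matched to samples by title. Symbols came from GENCODE M21 and RefSeq, and 32919 of 37991 IDs (86.6%) matched. Promoter sequences and their coordinates are RefSeq's for GRCm38.p6, not the build of the counts. Replicates differed by a chi-square of 20.4 to 104 per gene, so none was taken for a copy.

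Genes were kept by filterByExpr (minimum count 10), scaled by TMM and tested with edgeR 4.0.16 in R 4.3.3 by the quasi-likelihood F-test, two-sided, with no covariate and Benjamini-Hochberg adjustment over all 14686 tested genes at 0.05. Values per liver are CPM on TMM-scaled library sizes. The SE of a log2 fold change is that implied by the test, with n = 3 per group. Levels per kilobase use the longest GENCODE M21 transcript. Alternatives were DESeq2 1.42.0, limma-voom (limma 3.58.1), other scalings and filters, a robust fit, a block for the replicate number, offsets for length and GC content (lengths known for 97.0% of tested genes), and each library left out in turn. On counts simulated for this comparison over 14686 genes, edgeR found 5.97% of the true 1.5-fold changes, 47.8% at 2-fold and 84.8% at 4-fold. Among 14486 genes simulated without change, false calls numbered 13 for edgeR and 44 for DESeq2. True calls at 1.5-fold, 2-fold and 4-fold numbered 4, 32 and 56 for edgeR and 11, 45 and 59 for DESeq2.

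The members, their classes and the other gene lists were chosen with earlier results of these data known, so no test was made over a list. Values in every liver were given for the 12 members with the smallest p, for the member of each role with the highest level per kilobase, and for others whose promoter or role was described, the last chosen after their values were seen. All members below 0 were named, and from the receptor, induction and other inducible lists the 3 genes with the smallest p, beside genes named for their role. Marker genes were named as examples. A gene of the receptor and signalling list is not reported here by name.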

Additional observations from a re-analysis of the deposited data

How the results depend on the processing

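Under 15 alternatives the median log2 fold change ran from 0.16 to 0.24 for all members, from 0.08 to 0.15 for the type I class (0.084 without Zpbp2 KO replicate 2) and from 0.41 to 0.63 for the type II class. Calls changed with the tool and filter: DESeq2 called 76 genes, 2 of them members, and with no filter on low counts 12 genes were called, 0 of them members. With length and GC offsets 0 members were lower at an unadjusted p below 0.05. Leaving out 1 library gave 2 to 4 called genes, 6 to 11 members higher and 0 to 1 members lower at an unadjusted p below 0.05. With the replicate block 11 members were higher and the median was 0.18. No pairing by replicate number was seen. Correlations of deviations were 0.14, 0.20 and -0.24 for equal numbers and ran from -0.32 to 0.23 for different ones. With 3 livers per group such a check cannot settle whether the livers were paired.

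Members near 0 changed sign, and the cause was not tested. Oasl1 was -0.0037 with DESeq2, -0.0036 with its size factors, -0.028 with library totals and -0.058 with length and GC offsets. Herc6 was -5.9e-05 with limma-voom, -0.020 with library totals and -0.0011 with the replicate block. Ddx58 was 0.013 and Dtx3l 0.039 with length and GC offsets. With 1 library left out, ranges were -0.072 to 0.21 for Mx2, -0.082 to 0.12 for Eif2ak2, -0.078 to 0.12 for Ifih1, -0.071 to 0.032 for Lgals3bp, -0.13 to 0.11 for Parp14, -0.18 to 0.13 for Oasl1, -0.13 to 0.13 for Herc6, -0.10 to 0.22 for Trim30a, -0.13 to 0.0051 for Dtx3l, -0.11 to 0.16 for Samd9l, -0.13 to 0.019 for Parp9, -0.056 to 0.018 for Ddx58, -0.031 to 0.22 for Dhx58, -0.026 to 0.26 for Stat2, -0.31 to 0.0052 for Cmpk2 and -0.091 to 0.41 for Ifit2.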

Other observations

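Members on chromosome 11, which also carries Zpbp2, showed separation between the groups more often than the others, a pattern noticed after the values were seen. Of 9 members there, 5 had no overlap between the groups (55.6%): Ifi35, Igtp, Ifi47 and Xaf1 were higher and Trim25 was lower in Zpbp2 KO livers. Of the 35 members elsewhere 7 had no overlap (20%). Over all tested genes the shares were 12.9% of 1227 on chromosome 11 and 11.4% of 13459 elsewhere. In the gene order of GENCODE M21, Ifi35 lay 68 tested genes after Zpbp2 and Trim25 104 tested genes before it, while Dhx58, closer at 35 tested genes, overlapped between the groups. Igtp, Ifi47 and Irgm1 lay more than 500 tested genes away. Igtp, Ifi47, Irf1 and Irgm1 belong to the type II class, so class and chromosome are not independent here, and the share of each in the values was not tested.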
